A study of Mus musculus with 96 samples.

Results

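Among 42403 GATA6 binding regions mapped in mouse embryonic stem (ES) cells and their endoderm-like derivatives, 704 carried both a strong GATA6 motif and a strong OCT:SOX motif, the composite sequence bound jointly by OCT4 and SOX2. They were chosen by sequence alone, as the regions whose best match to each motif fell in the high score class of the deposited table. Their best GATA6 match scored 12 to 15.2 with a median of 13.5, and the nearest score left out of the class was 11.99. Their best OCT:SOX match scored 13 to 20.3 with a median of 14.3, and the nearest score left out was 12.99. Another 10677 regions had only the GATA6 motif in the high class, 2130 had only the OCT:SOX motif, and 28892 had neither. No binding value entered the choice.

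GATA6 is a zinc finger transcription factor that recognises the sequence GATA and drives the primitive endoderm (PrE), the extra-embryonic lineage set apart from the epiblast in the blastocyst. OCT4 (a POU-domain factor encoded by Pou5f1) and SOX2 (a factor of the high mobility group, HMG) bind side by side to a motif made of a SOX site followed by an octamer, and hold the pluripotent state of ES cells together with the nuclear receptor ESRRB. SOX17, an HMG factor of the endoderm, can partner OCT4 on a compressed form of the same motif. A region that holds both motifs can therefore be read by the factors of both cell states, and its occupancy was followed here while ES cells were driven towards PrE.

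The measurements are ChIP-seq profiles: an antibody pulls down a protein with the DNA it is fixed to, and that DNA is sequenced. The ES cells were of the KH2 line (C57BL/6 x 129/Sv) and carried a doxycycline (Dox)-inducible Gata6 cassette; untreated cells were compared with cells after 8, 16, 24, 48 and 96 h in 1 ug/mL Dox. Extra-embryonic endoderm (XEN) cells, a line derived from the PrE, gave an end point, and Dox-treated cells that also received Oct4 or control siRNA were collected at day 2. GATA6, SOX17, OCT4, SOX2 and input chromatin were profiled at every time and in XEN cells, ESRRB in the time course only, and GATA6 and SOX17 in the siRNA cells. The deposited values are RPM (reads on a region scaled to library size), 1 value per region and condition, averaged over libraries and called pooled here. In 40 of 45 columns the values could be split into whole reads of 1 or 2 libraries, to within their printed digits and in at least 99.3% of regions per column, so that the reads of 76 libraries were recovered, with depths of 5.42 to 69.4 M reads and a median of 15.3. The columns of OCT4, SOX2, ESRRB, SOX17 and input before induction could not be split and are given as pooled values. GATA6 and SOX2 at 96 h and input of XEN cells have 3 labelled libraries but showed 2, and ESRRB at 8 h and SOX17 at 16 h have 2 but showed 1. By the study's methods replicate libraries came from independent chromatin preparations, so p-values measure the spread between preparations, and GATA6 before induction and OCT4 in XEN cells have 1 each. The identity of the cells could not be checked against marker genes, because the table holds no expression values.

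The motif matches show what the rule selected. Within the GATA6 matches, every member had the bases G, A, T, A, A at positions 5 to 9 of the 13-base match, and 99.6% continued with G. The OCT:SOX matches varied more: of their 15 bases, T at position 9 was kept in 99.4% of members and G at position 10 in 91.5%, while the SOX site carried G at position 5 in 57.7% and C in 32.2%. In 7 members the best matches of both motifs shared bases. These are printed first because in them a single stretch of DNA serves both motifs. Each runs from 5′ to 3′ on the strand of the GATA6 match, in mm10 coordinates with sequence from the RefSeq copy of that assembly, and capitals mark the union of both matches.
Kcnk13 intron, chr12:100044343-100044373, plus strand: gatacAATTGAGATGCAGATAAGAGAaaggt
Pja2 intron, chr17:64293164-64293194, minus strand: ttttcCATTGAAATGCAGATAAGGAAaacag
intron of a noncoding gene upstream of Foxn2, chr17:88345770-88345805, minus strand: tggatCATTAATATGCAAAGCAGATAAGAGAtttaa
Dmrt1 intron, chr19:25556604-25556634, plus strand: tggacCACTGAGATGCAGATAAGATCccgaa
Pank1 intron, chr19:34846367-34846397, plus strand: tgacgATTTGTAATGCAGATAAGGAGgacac
intergenic near Rbp7, chr4:149446337-149446367, minus strand: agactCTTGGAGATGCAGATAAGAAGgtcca
intergenic near Klhl5, chr5:65102360-65102396, minus strand: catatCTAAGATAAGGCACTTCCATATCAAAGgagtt

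In 5 of these 7 the octamer ran directly into the GATA site, so that the string ATGCAGATAAG lay across both matches. That string was searched on both strands over windows of 401 bp centred on the GATA6 summit. It occurred in 1.14% of the members (8 of 704), 0.393% of regions with only the GATA6 motif high and 0.13% of all regions. It was chosen from these members and holds GATAAG, the core of their GATA6 matches, so an excess over all regions follows from the choice. GATA6 fell between 8 and 96 h at 6 of the 7 and rose at the Dmrt1 intron, where the pooled GATA6 value went from 0.174 to 0.951 RPM (log2 change 1.64, adjusted p = 0.00021 by limma). The largest fall of the 7 was in the Pank1 intron, from 2.53 to 0.295 RPM (log2 change -2.53, adjusted p = 2.4e-06). Overlapping matches were otherwise uncommon, at 0.994% of members against 4.61% of all regions holding both motifs.

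Some members were near-copies of each other. The OCT:SOX match CTTTATAATGCTAAT was found in 11 members, all in sequence that the assembly marks as repeated, and on 9 chromosomes. In 5 of them it lay 53 bp from a strong GATA6 match on the opposite strand. These 5 are printed as above, with both matches in capitals and the OCT:SOX match appearing as its reverse complement.
intergenic near Rbm26, chr14:105194056-105194132, minus strand: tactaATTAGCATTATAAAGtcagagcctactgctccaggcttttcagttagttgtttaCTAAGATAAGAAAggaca
Tbc1d12 intron, chr19:38870153-38870229, minus strand: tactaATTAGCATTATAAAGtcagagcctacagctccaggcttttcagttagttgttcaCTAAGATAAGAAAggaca
Blnk intron, chr19:40956869-40956945, plus strand: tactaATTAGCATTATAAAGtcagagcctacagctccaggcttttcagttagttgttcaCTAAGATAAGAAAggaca
intergenic near G6pd2, chr5:59849066-59849142, minus strand: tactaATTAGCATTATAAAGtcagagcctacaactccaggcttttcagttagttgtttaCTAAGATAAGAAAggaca
Otud7a intron, chr7:63601109-63601185, plus strand: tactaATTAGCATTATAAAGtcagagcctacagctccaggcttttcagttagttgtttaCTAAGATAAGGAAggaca

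The 5 copies were 97.4 to 100% identical over 77 bases. GATA6 fell at each between 8 and 96 h, by limma, with log2 changes from -2.81 in the Blnk intron to -1.93 near Rbm26. Their OCT4 before induction differed more, from 0.453 RPM in the Tbc1d12 intron to 2.63 near Rbm26. Reads from near-identical copies can be placed at the wrong copy, so the value of any single copy is uncertain. Across the 704 members, 594 distinct OCT:SOX matches were found, and 170 members had one that recurred. The OCT:SOX match lay in marked repeats in 25.1% of members against 22.3% of all regions with a match. Members with the match inside a repeat had a median GATA6 signal at 8 h of 3.59 RPM (n = 177), and those with it outside one had 4.72 (n = 527).

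Most members kept their motifs apart. The centres of the best matches were a median of 194 bp from each other, with quartiles of 76 and 404, against 150 bp over all regions holding both. Both matches lay on the same strand in 50.7% of members. Close pairs at individually named members are shown on the GATA6 strand, with capitals on both matches. They include the highest OCT:SOX score of all members, 20.3, in the intergenic region 38.1 kb from the start of Ptk2.
intergenic near Ptk2, chr15:73461381-73461439, plus strand: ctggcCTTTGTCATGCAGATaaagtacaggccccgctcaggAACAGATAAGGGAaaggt
Foxn3 intron, chr12:99300087-99300131, plus strand: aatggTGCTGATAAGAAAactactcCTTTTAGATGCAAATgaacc
intergenic near Ythdf3, chr3:16941474-16941563, minus strand: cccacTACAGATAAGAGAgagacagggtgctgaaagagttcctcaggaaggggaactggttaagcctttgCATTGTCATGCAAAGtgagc
intergenic near Setd4, chr16:93232282-93232342, minus strand: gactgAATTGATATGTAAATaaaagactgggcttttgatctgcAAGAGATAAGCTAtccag

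The highest score did not go with high occupancy. Near Ptk2, GATA6 measured 3.46 and 2.62 RPM in the libraries at 8 h and 0.832 and 1.1 at 96 h, while OCT4 before induction was 2.33. In the Foxn3 intron, with scores of 12 and 15, GATA6 measured 46.1 and 37.9 RPM at 8 h and 1.39 and 3.73 at 96 h, and OCT4 before induction was 29.3. Over the members, the Spearman correlation of the OCT:SOX score with OCT4 before induction was 0.12, and that of the GATA6 score with GATA6 at 8 h was 0.03. The members share the libraries behind these values, and the high score class leaves a narrow range of scores. The number of OCT:SOX matches per region followed OCT4 before induction more closely, with a correlation of 0.45 for the values per region and 0.27 per kb. Region width had a correlation of 0.72 with the same OCT4 values, and its part in the 0.45 was not tested.

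The short forms of the composite differed within the members. The canonical spacing TTGTNATGC occurred within the 401-bp windows of 10.2% of members, 11.5% of regions with only the OCT:SOX motif high and 2.09% of all regions, as the rule would bring. TTGTATGC, the compressed spacing associated with OCT4 and SOX17, occurred in 1.14% of members and 1.24% of all regions. The octamer ATGCAAAT occurred in 11.6% against 4.36%. A strong SOX17 motif (the high class of the deposited table) was present in 27.7% of members and 19.6% of all regions, and the best SOX17 match overlapped the best OCT:SOX match in 9.04% of the 553 members that had one.

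Members were wide and far from genes. Their median width was 829 bp, from 171 to 4894, against 524 bp for all regions, and they held a median of 4 GATA6 and 3 OCT:SOX matches against 2 and 1. How far the rule, which asks for a strong match to both motifs, favours wide regions was not tested. Of the 704, 45.5% were intergenic and 43.3% in introns of protein-coding genes, and 1.99% lay within 1 kb of a protein-coding start against 5.38% of all regions. Their GATA6 summits were a median of 41.4 kb from the nearest protein-coding start, against 31.1 kb over all regions. Where only the OCT:SOX motif was high, the distance was 40.5 kb and 46% were intergenic, so lying far from genes is not particular to members.

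By the deposited classes, members were bound by pluripotency factors before induction more often than all regions. OCT4, SOX2 or ESRRB peaks were present before induction at 406 members (57.7%, Wilson 95% interval 54 to 61.3) and at 20.8% of all regions. Peaks that appeared only after induction, the ectopic class, were found at 78 members (11.1%) against 16.6%, and no such peak at 220 (31.2%) against 62.6%. Members of the last class are called without these factors below, which means that no peak was called, not that signal was lacking. The regions with only the OCT:SOX motif high were bound before induction slightly more often, at 65.8%, while those with only the GATA6 motif high were bound in 15.6%. Wilson intervals cover the counting of regions only. Wide members were bound most often, at 14%, 12.2%, 51.1% and 75.8% in quartiles 1 to 4 of the width of all regions. All regions were bound in 5.43%, 12.4%, 22% and 43.6% of these quartiles, so the difference was absent in the second, which holds 90 members.

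The GATA6 time course classes, which the authors made by clustering input-normalized signal, set members apart from the regions with a strong GATA6 motif alone. Transient binding was the class of 403 members (57.2%), of 38.2% of regions with only the GATA6 motif high and of 68.7% of those with only the OCT:SOX motif high. Early and constant binding was the class of 273 members (38.8%), close to the 39.4% of regions with only the GATA6 motif high and above the 22.4% of those with only the OCT:SOX motif high. Late binding was rare among members, at 28 regions (3.98%), against 33.6% of all regions. Members were closed before induction in 54.7% of cases, against 72.1% with only the GATA6 motif high and 35.2% with only the OCT:SOX motif high. Members thus sat between the regions with a single strong motif in transient binding, binding before induction and closed chromatin. The excess of transient binding over all regions was 26.4 percentage points among closed members, 5.32 among moderately accessible ones and 6.93 among accessible ones.

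**Figure D1:**
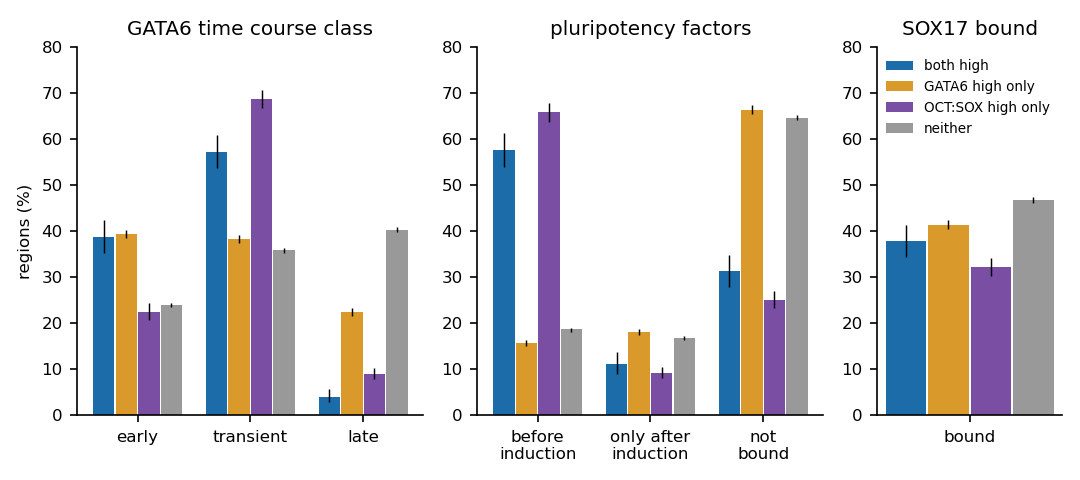
Share of regions (%) in the deposited classes of GATA6 time course, pluripotency factor binding and SOX17 binding, for the 4 motif combinations, with bars as shares and lines as Wilson 95% intervals. Of the members (blue), 57.7% were bound before induction and 3.98% were late.

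GATA6 arrived at these regions early and in large amounts, then left most of them. The median over members was 4.77 and 4.1 RPM in the libraries at 8 h, 1.5 and 1.75 at 48 h, 0.832 and 1.27 at 96 h and 0.847 and 0.891 in XEN cells. Before induction the single library gave 0.653, near the pooled input median of 0.622. Both libraries at 8 h thus lay above both at 96 h. At 8 h the pooled member median of 4.5 RPM was 3.02 times that of all regions and also above the medians of regions with only the GATA6 motif high (2.05) or only the OCT:SOX motif high (2.92). Per kb of width the ratio to all regions was 1.69. By 96 h the member median, at 1.08 RPM, was 0.834 times that of all regions, and in XEN cells 0.624 times, while the mean over members stayed above that of all regions, at 1.28 and 1.18 times.

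By limma over single libraries, adjusted over all regions, GATA6 fell between 8 and 96 h at 538 of the 698 members tested, where 38.8% of all regions fell. It rose at 66, where 35.3% of all regions rose. The median log2 change was -1.93 over members, -1.81 over regions with only the OCT:SOX motif high, -0.49 over those with only the GATA6 motif high and -0.03 over all regions. The tests left out 6 members whose reads could not be assigned to single libraries. Between 96 h and XEN cells GATA6 fell at 88 of 704 members, the same share as over all regions (12.5% fell), and rose at 54 (16.5% of all regions rose). Those counts were less stable: without the shallower 96 h library 20 fell and 35 rose, without the deeper XEN library 29 fell and 19 rose, and without the shallower XEN library 35 rose.

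**Figure D2:**
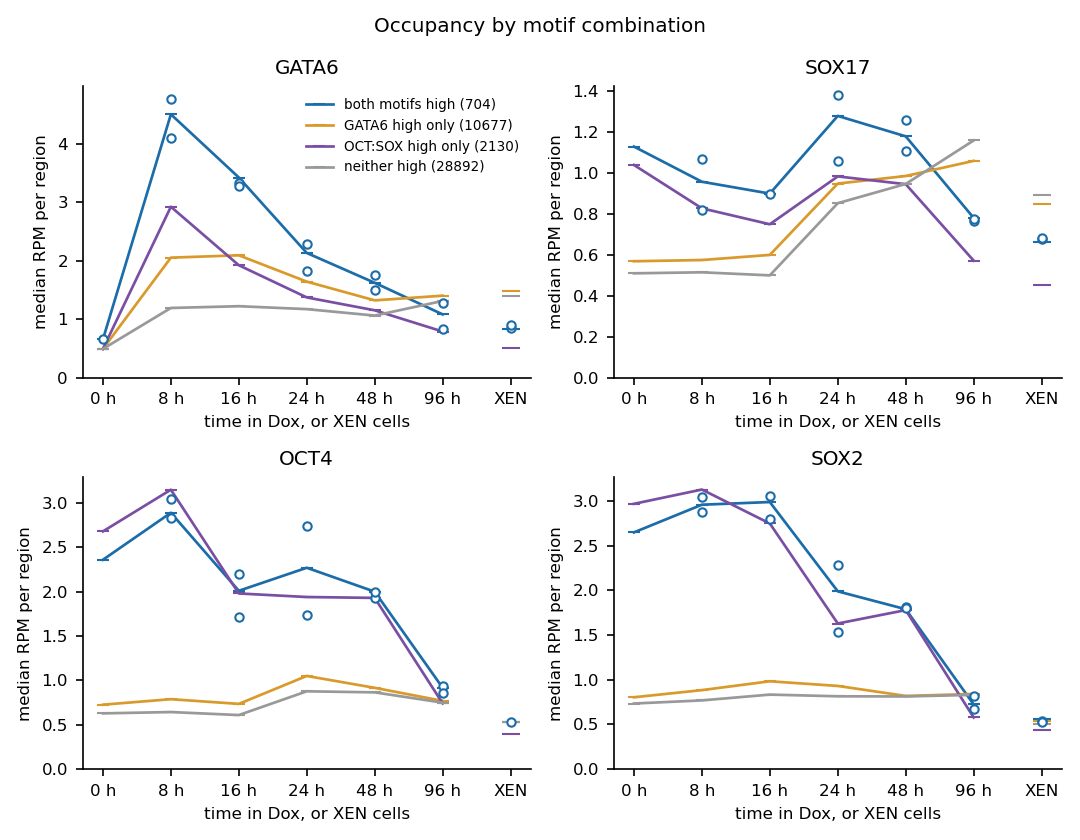
Median RPM per region (y axis) over hours in Dox and in XEN cells (x axis) for GATA6, SOX17, OCT4 and SOX2; lines join pooled medians of the 4 motif combinations and open circles are member medians in single libraries. The members' GATA6 medians go from 4.77 and 4.1 at 8 h to 0.832 and 1.27 at 96 h.

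OCT4 and SOX2, the readers of the composite motif, were already there. Before induction the pooled median of OCT4 at members was 2.36 RPM, 3.35 times that of all regions (2.11 times per kb), and that of SOX2 was 2.65. Regions with only the OCT:SOX motif high had 2.68 and 2.97. ESRRB, whose motif was not part of the rule, had a median of 1.13 RPM at members and 0.574 over all regions, or 1.3 and 1.08 per kb. Where only the OCT:SOX motif was high it had 1.09 RPM, or 1.72 per kb, so this excess is not particular to members. SOX17 before induction measured 1.13 RPM at members against 0.545 over all regions, and input 0.622 against 0.448. Its member medians then were 1.8 RPM where pluripotency factors were bound and 0.463 where they were not, with input at 0.788 and 0.376. The part of input and width in that signal was not tested.

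OCT4 declined over the members after 8 h. Its member median was 3.04 and 2.83 RPM in the libraries at 8 h, 1.93 and 2 at 48 h and 0.939 and 0.857 at 96 h, so that the libraries of these 3 times did not overlap. From 8 to 48 h OCT4 fell at 224 of 691 members tested by limma (10.6% of all regions fell) and rose at 57 (18.8% rose). From 48 to 96 h it fell at 307 (18.3% of all regions fell) and rose at 11 (7.27% rose). With any single library of 8 or 48 h left out, the first count lay between 82 and 124. The second was 193 and 189 without the deeper and shallower 48 h library and 164 without the shallower 96 h library. SOX2 followed the same order, with member medians of 2.88 and 3.05 RPM at 8 h, 1.81 and 1.8 at 48 h and 0.672 and 0.818 at 96 h. It fell at 301 members from 48 to 96 h (16.5% of all regions fell) and rose at 36 (14.6% rose), and without the deeper 96 h library it fell at 186. From 8 to 48 h it fell at 150 members (7.02% of all regions fell) and rose at 17 (5.31% rose). That fall rested on all libraries together, since 6 to 22 members were called when any one was left out. Where only the OCT:SOX motif was high, OCT4 fell at 36.1% of regions from 8 to 48 h and at 51.7% from 48 to 96 h. The members' shares were 32.4% and 44.4%. SOX2 fell at 19.6% and 54.5% of those regions, against 21.3% and 42.8% of members. The falls of OCT4 and SOX2 are thus not particular to members.

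The SOX17 signal rose at some members and fell at others. The median of this endoderm factor over members was 0.822 and 1.07 RPM at 8 h, 1.26 and 1.11 at 48 h and 0.764 and 0.774 at 96 h. Between 8 and 96 h SOX17 rose at 182 of 702 members by limma, where 47.8% of all regions rose, and fell at 161, where 8.98% fell, and 90 fell without the shallower 8 h library. Where only the OCT:SOX motif was high, SOX17 rose at 22.2% of regions and fell at 28.1%, against 25.9% and 22.9% of members. The pooled member median was already 1.13 RPM before induction and 0.958 at 8 h. The falls thus start from signal present before induction, and whether that signal is SOX17 binding was not tested. The median log2 change of all regions was 0.79, and with libraries centred on the median region 126 members rose and 357 fell. The 266 members with a SOX17 peak had a median SOX17 log2 change of 1.34, and the 438 without one of -0.51. The authors called these peaks on the same SOX17 profiles, so that difference is in part what defines the 266 and the 438.

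The time courses parted by what bound the regions besides GATA6. At the 406 members bound by pluripotency factors before induction, the pooled GATA6 median went from 7.62 RPM at 8 h to 1.35 at 96 h and 0.854 in XEN cells, and that of OCT4 was 4.64 before induction and 1.15 at 96 h. There GATA6 fell at 354 of 400 members tested (88.5%, against 77.2% of all regions of the class) and rose at 7 (1.75%, against 5.94%). At the 220 members without a called peak of these factors, GATA6 began lower, at 2.06 RPM, fell to 0.574 and was called lower at 154 (70%, against 31.4% of all regions of the class) and higher at 25 (11.4%, against 40.7%). The 78 ectopic members had GATA6 medians of 3.18 RPM at 8 h, 3.38 at 48 h, 3.87 at 96 h and 3.32 in XEN cells, behind which single members went both ways. Of these 78, GATA6 rose at 34 (43.6%, against 51.5% of all ectopic regions) and fell at 30 (38.5%, against 18.5%). Their OCT4 was 1.41 RPM at the start, 2.74 at 24 h and 2.03 at 96 h, and their SOX17 went from 0.828 RPM at 8 h to 3.62 at 96 h. SOX17 rose at 48 of the 77 ectopic members tested (62.3%, against 74.2% of all ectopic regions). The classes were made by the authors from peaks called on the same chromatin, so the differences between them in OCT4 and SOX17 are in part what defines them.

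**Figure D3:**
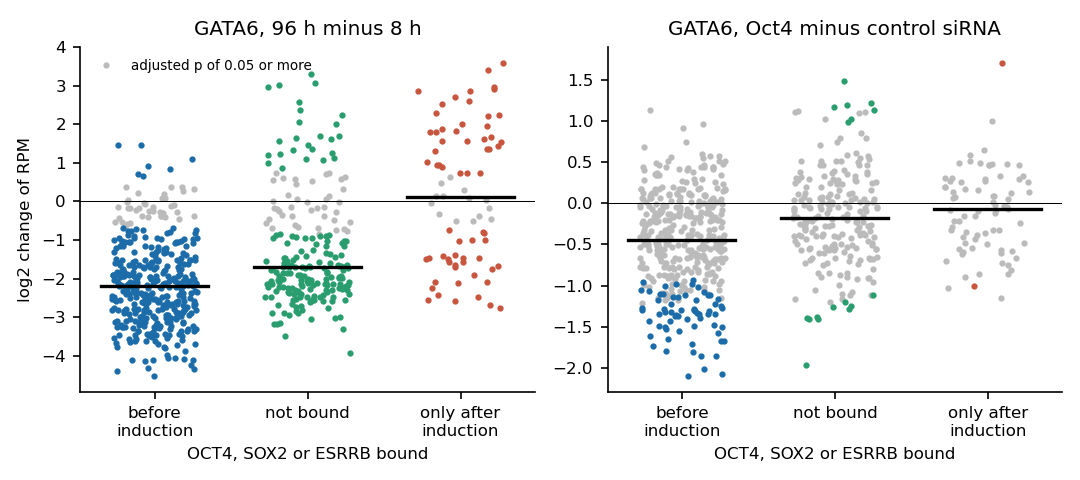
Log2 change of GATA6 RPM (y axis) of each member from 8 to 96 h (left) and from control to Oct4 siRNA (right), by the time at which OCT4, SOX2 or ESRRB peaks were present; colored points passed an adjusted p of 0.05 by limma, grey points did not, and bars are medians. From 8 to 96 h GATA6 fell at 354 of 400 members bound before induction (77.2% of all regions of that class fell), and of 78 ectopic ones it rose at 34 and fell at 30 (51.5% and 18.5% of all ectopic regions).

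The 66 members at which GATA6 rose differed from the 538 at which it fell in the factors they held. The ectopic class made up 51.5% of the former and 5.58% of the latter, SOX17 peaks were present at 92.4% and 26.4%, and closed chromatin before induction at 87.9% and 49.6%. These shares were not taken over all rising and falling regions. Among all early and constant regions 36.3% were ectopic, 72.6% had SOX17 peaks and 64.9% were closed. Among all transient regions the shares were 7.92%, 16.2% and 41.1%. The contrast is thus not shown to be particular to members. A strong SOX17 motif was present at 43.9% of the rising and 25.8% of the falling members. Median OCT:SOX scores were 14.1 in the rising and 14.4 in the falling members, and median GATA6 scores 12.9 and 13.6. The rising members had OCT4 medians of 0.963 RPM before induction, 2.13 at 48 h and 2.83 at 96 h. The falling ones had 2.7, 1.9 and 0.716.

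Members high in one factor were high in the others at each time compared. The Spearman correlation between OCT4 and GATA6 over the 704 members was 0.86 at 8 h (0.70 per kb), 0.88 at 48 h (0.72 per kb) and 0.92 at 96 h (0.86 per kb), and between SOX17 and GATA6 it was 0.94 at 96 h (0.91 per kb). GATA6 at 8 h and GATA6 in XEN cells had a correlation of 0.39, which was -0.02 per kb. Input and region width run through all these values, and the correlations describe these libraries only.

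The position of the motifs under the GATA6 summit also differed with the class. The best GATA6 match was a median of 52 bp from the summit over all members and the best OCT:SOX match 97 bp. In members bound before induction the medians were 79 and 72 bp, and the OCT:SOX match was the nearer one in 52.2%. In members without pluripotency factors the OCT:SOX match was nearer in 25.5%, with medians of 30.5 and 119 bp, and in ectopic members in 17.9%, with 36.5 and 246 bp. Over all regions holding both motifs the corresponding shares were 48.2, 31.2 and 31.6%. Members bound before induction were wider, with a median of 1016 bp against 524 without these factors, and in those no wider than the members' median the share was 58.5% (a subset chosen after seeing the data). Members bound before induction also had the string AGATAAG within 200 bp of the summit less often, in 69% of members against 92.3% of those without pluripotency factors.

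**Figure D4:**
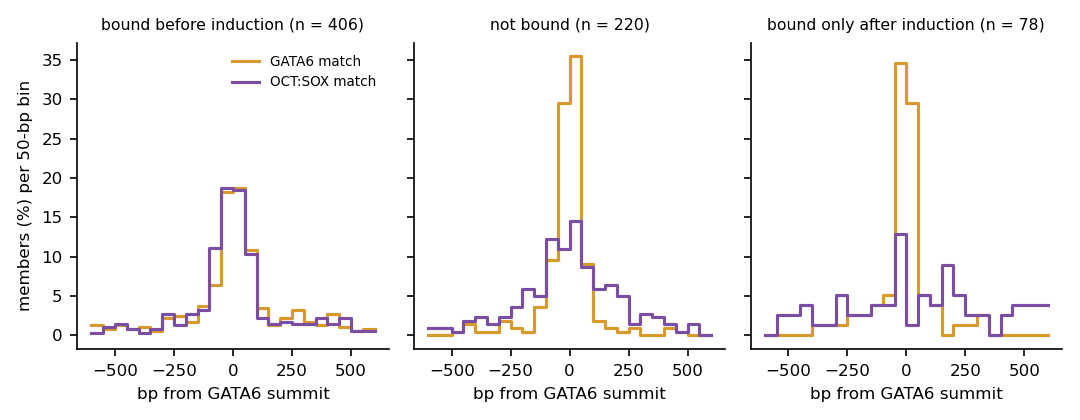
Distance of the best GATA6 and best OCT:SOX match from the GATA6 summit (x axis, bp) as the percent of members in each 50-bp bin (y axis), by class of pluripotency factor binding. GATA6 matches crowd the summit where these factors had no called peak or were ectopic, and where they were bound before induction the medians are 79 bp for GATA6 and 72 bp for OCT:SOX matches.

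GATA6 was lower at a minority of members in the libraries of cells that received Oct4 siRNA. Member medians were 1.91 and 2.46 RPM with control siRNA and 1.54 and 1.69 with Oct4 siRNA, so the groups did not overlap, while the medians of all regions did (1.45 and 1.81 against 1.49 and 1.89). By limma GATA6 was lower at 77 of 704 members, where 4.07% of all regions were lower, and higher at 9, where 6.17% were higher. Where only the OCT:SOX motif was high, 8.45% of regions were lower, with a median log2 change of -0.31. The members' values were 10.9% and -0.32, so the lower GATA6 is not particular to them. Of the 77, 66 were among the 406 members bound before induction, 10 were without pluripotency factors and 1 was ectopic. Across its GATA6 regions, the study reported that sites with reduced binding under Oct4 knock-down were enriched for pluripotency factor binding. The concentration in that class is therefore not particular to members. The median log2 change was -0.45 at members bound before induction and -0.08 at ectopic ones. Where the OCT:SOX match was the nearer to the summit 16.3% of members were lower (46 of 282), and where the GATA6 match was nearer 7.35% (31 of 422). Of those 282 members, 212 were bound before induction, so this split overlaps with the binding class. The part of motif position apart from that class was not tested, and the same split was not made over all regions. The count of 77 depended on the libraries: it was 13 without the deeper control library, 6 without the shallower control library and 41 without the shallower Oct4 siRNA library, and 184 with libraries centred on the median region. OCT4 was not profiled in the siRNA cells, so its loss could not be checked here.

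SOX17 in the same cells gave no stable result. The Oct4 siRNA libraries differed from each other, with member medians of 0.868 and 1.67 RPM, against 0.837 and 0.928 with control siRNA. By limma SOX17 was higher at 4 members (2.08% of all regions) and lower at 0 (0.00472% of all regions), with 54 higher and 1 lower at an unadjusted p under 0.05 and 10 higher and 0 lower by voom. The count of 4 was 262 without the deeper Oct4 siRNA library, 29 without the shallower one and 0 without either control library. Centred on the median region, 38 members were higher and 48 lower.

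Single regions show the range of courses, and are named by the nearest protein-coding start. The members nearest to a pair of laminin genes, which encode basement membrane proteins that PrE cells secrete, took different courses. The region chr1:153376278-153378779, 44.3 kb from the start of the laminin gene Lamc1, was among the 3 named for high GATA6 at 8 h. Its GATA6 was 58 and 51.9 RPM at 8 h, then 29.8 and 37.3 at 96 h and 37.2 and 34.3 in XEN cells. The fall from 8 to 96 h had a log2 change of -0.71. The regions near Lamc1 and Calcoco2 were named for their GATA6 at 8 h and Chst15 for that at 96 h, so their GATA6 changes between these times are given without a test. SOX17 there rose between 8 h (8.15 and 8.93 RPM) and 96 h (36.1 and 24.2) (log2 change 1.77, SE 0.32, adjusted p = 4e-07). GATA6 was thus lower and SOX17 higher in both 96 h libraries than in both 8 h libraries. The region chr17:67682635-67684331, 14 kb from the start of the laminin gene Lama1, was closed before induction and belonged to the ectopic class. Its GATA6 was 3.4 and 1.92 RPM at 8 h, 8.5 and 9.26 at 48 h and 15.7 and 20 at 96 h (log2 change from 8 to 96 h 2.7, SE 0.30, adjusted p = 3.1e-08). OCT4 also rose, between 8 h (1.7 and 1.64 RPM) and 48 h (3.84 and 5.35) (log2 change 1.36, SE 0.30, adjusted p = 0.0017). The sites behind these courses are printed on the strand of each match, with the match in capitals.
Lamc1 GATA6 site, chr1:153378152-153378174, plus strand: tgattCCCAGATAAGGACtcagt
Lamc1 OCT:SOX site, chr1:153376907-153376931, plus strand: aaatcCCTTGTGTTGCAAATtaaac
Lama1 GATA6 site, chr17:67684071-67684093, minus strand: cggcaTTTAGATAAGGAAttttg
Lama1 OCT:SOX site, chr17:67683469-67683493, minus strand: ctgttCATTGTGATGCTTAGgtttg

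The strongest gain among the named members was in an intron of Chst15 (a sulfotransferase of the Golgi), at chr7:132249914-132251727. GATA6 there was 2.94 and 3.23 RPM at 8 h, 24.5 and 17.3 at 48 h, 36.9 and 42.5 at 96 h and 61.1 and 57 in XEN cells. From 8 to 96 h the log2 change was 3.6, with no overlap between times. SOX17 went from 1.42 and 1.43 RPM to 49.1 and 39.1 over the same span (log2 change 4.77, SE 0.33, adjusted p = 1.8e-34), and OCT4 from 0.785 and 0.669 at 8 h to 12.3 and 9.09 at 96 h. In XEN cells the single OCT4 library measured 4 RPM, below both 96 h libraries. The region 18.3 kb from Aqp8, an aquaporin gene, held GATA6 at 15.1 and 12.9 RPM at 8 h and 16.4 and 20.1 at 96 h, a difference within the spread (log2 change 0.37, SE 0.25, adjusted p = 0.17).
Chst15 GATA6 site, chr7:132250519-132250541, plus strand: gtgtaCACAGATAAGCACtggag
Chst15 OCT:SOX site, chr7:132251250-132251274, plus strand: tatgaCTTTCACATGCACATgttgg

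**Figure D5:**
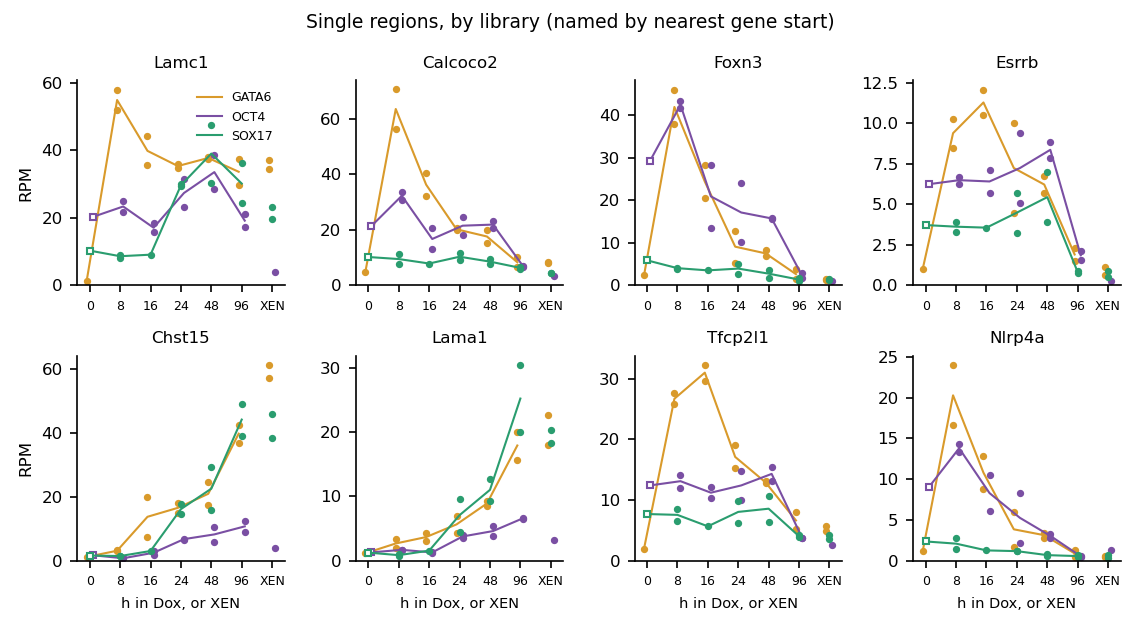
RPM of GATA6, OCT4 and SOX17 (y axis) over hours in Dox and in XEN cells (x axis) at 8 members named by the nearest gene start; filled points are single libraries, open squares pooled values that could not be split, and lines join pooled values. Lamc1, Calcoco2, Foxn3, Esrrb, Tfcp2l1 and Nlrp4a peak in GATA6 by 16 h, and Chst15 and Lama1 rise to 96 h.

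GATA6 fell at the members near listed pluripotency genes, as it did at 538 of the 698 members tested. In an intron of Esrrb, which encodes the ESRRB factor itself, the region chr12:86478498-86479568 had GATA6 at 10.3 and 8.47 RPM at 8 h and 1.5 and 2.29 at 96 h (log2 change -2.22, SE 0.34, adjusted p = 3.1e-06). OCT4 there stayed at 7.87 and 8.87 RPM at 48 h and fell to 2.13 and 1.54 at 96 h (log2 change -2.1, SE 0.32, adjusted p = 6.2e-05). GATA6 at 48 h was 6.73 and 5.71 RPM, between its values at 8 and 96 h. In an intron of Tfcp2l1, a transcription factor of naive pluripotency, GATA6 went from 27.6 and 25.9 RPM (8 h) to 5.27 and 7.98 (96 h) (log2 change -2.01, SE 0.24, adjusted p = 1.2e-07). The member 18.8 kb from the start of Tet2, an enzyme that oxidises methylcytosine, fell from 6.74 and 6.11 RPM to 0.721 and 1.19 (log2 change -2.56, SE 0.40, adjusted p = 4.3e-06). Of 40 listed pluripotency regulators 4 had a member within 20 kb (Esrrb, Tfcp2l1, Dppa4 and Tet2). Each had 1 member, among 13, 7, 6 and 8 GATA6 regions in the same order. Members make up 704 of all 42403 regions, and whether they are more frequent near listed genes was not tested. Listed PrE genes with a member within 20 kb included Lama1 (1 of 20 regions), Aqp8 (1 of 7) and Rbms1 (1 of 11). They also included Fgfr2 (2 of 91), whose annotated gene model is unusually long. The member nearest Dppa4 lies at the Dppa2 promoter and the one at Rbms1 in its intron, and at both GATA6 fell, with log2 changes of -1.06 (SE 0.29, adjusted p = 0.0017) and -1.18 (SE 0.35, adjusted p = 0.004).
Esrrb GATA6 site, chr12:86478856-86478878, plus strand: tatgaAATAGATAAGATTctgga
Esrrb OCT:SOX site, chr12:86479028-86479052, plus strand: gcttcCTTGGAAATGCAAATttagg
Tfcp2l1 GATA6 site, chr1:118649630-118649652, minus strand: actttTTGAGATAAGAGTtcacc
Tfcp2l1 OCT:SOX site, chr1:118648175-118648199, minus strand: ggtcaCTTTGTGATGTAAACtagcc

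The deepest losses among the named members were in the Foxn3 intron and near Nlrp4a. In the Foxn3 intron printed above, GATA6 fell by 4.07 on the log2 scale from 8 to 96 h (SE 0.36, adjusted p = 1.6e-09), and OCT4 went from 43.3 and 41.7 RPM (8 h) to 15.8 and 15.6 (48 h) and 2.77 and 1.66 at 96 h. Oct4 siRNA libraries had 2.61 and 4.08 RPM of GATA6 there, below the control libraries at 7.39 and 8.77 (log2 change -1.25, SE 0.34, adjusted p = 0.0058). The intergenic region chr7:26476293-26478018, 41.8 kb from Nlrp4a, was closed before induction and fell in GATA6 from 24 and 16.6 RPM (8 h) to 0.499 and 1.27 (96 h) (log2 change -4.32, SE 0.41, adjusted p = 4.5e-09). Its GATA6 under Oct4 siRNA, at 0.798 and 0.597 RPM, lay below the control libraries at 2.83 and 3.24 (log2 change -1.86), and the region was named for being among the 3 largest falls in this comparison. The widest member, chr11:96112727-96117621, lay near Calcoco2, an autophagy receptor gene. Its GATA6 was the highest of the named members at 8 h, with 70.6 and 56.4 RPM, and 6.38 and 10 at 96 h (log2 change -2.95). Near Jarid2, a subunit of the Polycomb complex, OCT4 before induction was the highest of the named members at 32.3 RPM. GATA6 there fell from 25.2 and 24 to 5.04 and 9.25 (log2 change -1.82, SE 0.26, adjusted p = 1.5e-06).

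A few members went the other way under Oct4 siRNA. Near Zfp280b, a zinc finger gene, GATA6 was 4.3 and 4.88 RPM in control libraries and 13.5 and 17.5 with Oct4 siRNA (log2 change 1.71). The same region had GATA6 at 2.51 and 2.7 RPM at 48 h, 15.7 and 9.17 at 96 h and 20.6 and 19.9 in XEN cells. In an intron of Epb41, GATA6 was 4.85 and 6.48 RPM in control libraries and 11.2 and 14 with Oct4 siRNA (log2 change 1.14). These regions were among the 3 named for the largest rise, and the siRNA comparison chose them.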

How the data were processed

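ChIP-seq of GATA6, SOX17, OCT4, SOX2, ESRRB and input in Dox-induced ES cells, XEN cells and siRNA-treated cells was analysed from a single deposited table. The authors trimmed reads with cutadapt, aligned them to mm10 with Bowtie2, marked and filtered duplicates with SAMtools, called peaks with MACS2 and counted reads on GATA6 regions. The deposited RPM values are scaled to library size and averaged over the libraries of a condition. Motif values deposited by the authors are FIMO scores of the best match, with score classes. GATA6, pluripotency factor, SOX17, accessibility and chromatin classes are also theirs. Their own comparison of siRNAs entered no value here, nor did 14 columns of values of samples outside those mapped here.

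Single-library reads were recovered from the steps of the pooled values (tested on simulated data). Changes of log2(RPM + pseudocount), with the pseudocount at percentile 5 of each factor (0.193 RPM for GATA6, 0.192 for SOX17, 0.167 for OCT4, 0.195 for SOX2), were tested with limma 3.58.1 (R 4.3.3, trended empirical Bayes, Benjamini-Hochberg over all regions, adjusted p under 0.05). A pseudocount understates changes of low regions. Time course and XEN libraries of a factor were fitted together, siRNA libraries apart. In data simulated for GATA6 with Oct4 against control siRNA over 42403 regions, 69.5% of 200 regions changed 2-fold were called, and 1.4% of calls were false. The changed regions were drawn from those at or above the median signal. The simulation assumed a small spread between libraries, not estimated from the data, and no shift between them. Its rates therefore need not hold for the real siRNA libraries. Fold changes compare 2 libraries with 2, and depths limit low values to a few reads. Regions were placed with GENCODE M21 and sequences read from RefSeq's mm10 assembly with pysam 0.24.0 and samtools 1.23.1. Tables and figures were made with Python 3.11.15, numpy 2.4.6, pandas 2.3.3 and matplotlib 3.10.9. Regions were named by fixed rules: the 10 largest summed scores, the 3 highest of GATA6 at 8 h and 96 h and of OCT4 before induction and at 48 h, the 3 largest siRNA falls and rises among members at or above the members' median of control signal, and those within 20 kb of listed genes, 1 of which is not reported here. The members and the gene lists were chosen with earlier results of these data known.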

Additional observations from a re-analysis of the deposited data

How the results depend on the processing

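The members' levels depended on how a level was taken. The ratio of members to all regions for GATA6 at 8 h was 3.02 for medians, 2.64 for means, 1.69 per kb, 3.48 after subtracting input, 2.03 with regions of low peak RPM left out, and 2.21 for regions high or mid in both motifs. For OCT4 before induction the main ratio of 3.35 became 2.79, 2.11, 8.03, 2.02 and 2.22 in the same order. For SOX17 at 96 h the ratio of 0.712 became 1.2 for means, a reversal, and 0.449, 0.408, 0.903 and 0.921 under the others. Means also reversed GATA6 at 96 h (1.28) and in XEN cells (1.18), and OCT4 at 96 h reversed per kb (0.726 against 1.21).

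Shares of classes were recomputed within strata. The excess of transient binding over all regions, 18.8 percentage points, was 6.93, 5.32 and 26.4 in accessible, moderate and closed regions, 40.3, 35.5, 28.6 and 12.4 in width quartiles 1 to 4, and 9.68 for high or mid motifs. The excess of binding before induction, 36.8, was 47.1 in moderate and 26.6 in closed regions, 8.52, -0.173, 29.1 and 32.2 in the width quartiles, the second a reversal, and 21.2 for high or mid motifs. The difference in SOX17 peaks, -6.7, was 1.85 in moderate regions, a reversal, -12.1 in closed ones, -22.4, -24.5, -23.9 and -14.5 in the width quartiles, and -1.71 for high or mid motifs. The ectopic difference of -5.52 reversed to 0.072 for high or mid motifs. The share of bound members with the OCT:SOX match nearer the summit was 52.2%, and 58.5% in members no wider than their median.

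Counts of called members moved with the settings as follows. Testing only regions at or above the median mean RPM, 352 members fell in GATA6 from 8 to 96 h in place of 538, and 74 fell in SOX17 in place of 161, where the median change reversed from -0.14 to 0.58, fewer members being tested. A pseudocount 10 times larger left 45 in place of 88 falling from 96 h to XEN cells. Centring libraries gave 357 falls of SOX17 and 184 lower with Oct4 siRNA, and a fit of the compared conditions alone gave 330 falls of SOX2 from 8 to 48 h in place of 150. For SOX17 with Oct4 siRNA the 4 members called higher became 0 with the larger and 7 with the smaller pseudocount, 38 on centring (with the median change reversed from 0.38 to -0.13), 9 with the filter and 10 with voom, and 54 members were higher at an unadjusted p under 0.05. Leaving out 1 library at a time, counts ran from 495 to 528 for the fall of GATA6 from 8 to 96 h, from 20 to 115 (falls) and 19 to 36 (rises) from 96 h to XEN cells, from 90 to 161 for the fall of SOX17, from 82 to 124 and from 164 to 242 for the falls of OCT4, from 6 to 22 and from 186 to 241 for those of SOX2, from 6 to 55 for GATA6 with Oct4 siRNA and from 0 to 262 for SOX17 with it. The cause of these differences was not tested, beyond fewer libraries or regions. No paired analysis was possible because the recovered libraries carry no replicate number, and the replicate block was therefore not run. The depth of single libraries limits low values, which rest on a few reads.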

Other observations

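Chromatin marks of undifferentiated cells, as classed by the authors, were distributed unlike those of all regions. Primed enhancers made up 25.7% of members against 16.9% of all regions, active enhancers 14.9% against 11.2%, and chromatin without marks (naive) 24% against 18%. Facultative heterochromatin was less frequent, at 12.8% against 22.3%, and poised enhancers at 11.4% against 14.6%. Regions with only the GATA6 motif high were in facultative heterochromatin in 25.5% of cases. A strong ESRRB motif was present in 13.4% of members and 8.67% of all regions.

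ESRRB, which has no part in the composite motif, declined at members as OCT4 did, with member medians of 1.32 RPM in the single library recovered at 8 h (of 2 labelled), 0.679 and 0.74 at 48 h and 0.468 and 0.536 at 96 h. All regions had 0.659 at 8 h, and 0.416 and 0.417 at 96 h, so at the end members were at most slightly above them. Where only the OCT:SOX motif was high, ESRRB also declined, from 1.1 at 8 h to 0.364 and 0.417 at 96 h. The 28 late members were low in every factor at 8 h, with pooled medians of 0.615 RPM for GATA6 and 0.445 for OCT4. At 96 h their medians were 2.13 RPM for GATA6, 2.21 for SOX17 and 1.06 for OCT4.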
